A study of Mus musculus with 16 samples.

Results

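The epithelium of the male mouse urogenital sinus (UGS) was described here as it stands without chemical exposure, across all genes and with no contrast against exposed tissue. The series holds 8 RNA-seq pools of UGS epithelium, each sequenced on 2 lanes. The 4 pools labelled as control were used, which are 8 of the 16 lane columns of the count table, and the 4 pools from dams given TCDD were left aside. The fetuses were males of the C57BL/6J strain, with no transgene or deletion named. Their dams received corn oil, the vehicle, by mouth at 5 mL/kg on embryonic day (E)13.5, and the epithelium was collected at E16.75. Each pool combined 5 or 6 epithelia, so a value is an average over fetuses and the spread between single fetuses is not measured. The labels do not say how litters were divided among pools. The tissue was treated with trypsin and collagenase in the cold, mesenchyme was peeled away under a microscope, and bladder and distal urethra were cut off, so that what remained was the stretch that gives rise to the prostate.

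The UGS epithelium is endoderm from the cloaca. In males, androgens acting through the surrounding mesenchyme cause solid epithelial buds to grow out of its basal layer, and these buds become the ducts of the prostate. The epithelium signals back with Sonic hedgehog, and WNT, FGF and BMP pathways place and pace the buds. The Wolffian ducts, which are mesodermal and form the epididymis and seminal vesicle, open into the UGS in the same region.

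The pools held 25917911 to 28146766 gene counts. Lanes of a pool differed by about counting noise alone, with a chi-square per gene of 1.02 to 1.04, so they were averaged and counted as 1 sample, whereas pools differed from each other by 10.1 to 20.2 per gene. A level is given as CPM, a gene's counts relative to all gene counts of the pool, for each pool in the order 1, 2, 3 and 4, or as a mean ± SD over n = 4 pools. Levels of different genes are ranked only per length, as TPM, which also divides each gene's counts by the summed length of its exons. Classes of genes by level and a gene's share of a list's sum use CPM, in which length is not taken into account. Genes in an order of levels are called separate only where their ranges over the 4 pools do not overlap. No molecular identifiers are named in the labels, so intervals on counts given here cover counting error only. No pool stood apart in depth, but pool 2 held red cell messages and hardly any duct messages, and pool 4 held a trace of striated muscle, as given with the differences between pools.

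Of 55487 genes in the annotation, 13518 had a mean of at least 1 CPM, 18533 had a count in every pool, and 29524 had no count in any lane. The genes at 1 CPM or more comprised 12530 of 21974 protein-coding genes, 741 long noncoding genes and 220 pseudogenes. Counts were spread over many genes. The top 10 genes held 6.20 to 6.36% of a pool's counts and the top 1000 held 46.9 to 47.3%, and 1164 genes together made up 50% of the mean profile. Means of at least 10, 100 and 1000 CPM were reached by 9968, 2460 and 79 genes. The median level of the genes at 1 CPM or more was 23.4 TPM.

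The most abundant messages per length, outside the mitochondrial genome, were those of protein synthesis and of a stratified epithelium. *Eef1a1*, which encodes the elongation factor that brings aminoacyl-tRNA to the ribosome, stood at 14935 ± 465 TPM. *Krt15*, a keratin of basal stratified epithelium, followed at 11462 ± 1042 TPM and was separate from its neighbors in rank. Below it the pool ranges of the ribosomal protein gene *Rplp1* (7596 ± 1137 TPM) and of *S100a11* (7268 ± 626 TPM), which encodes a calcium-binding protein, overlapped, and *Rps3a1* stood at 5936 ± 247 TPM. The long noncoding RNA *H19*, expressed from the maternal chromosome and abundant in fetal tissue, reached 4862 ± 1086 TPM. The chaperone gene *Hsp90ab1* (4361 ± 303 TPM) and the keratins *Krt5* (3754 ± 227 TPM) and *Krt4* (3515 ± 589.5 TPM) were also among the top 20, and ribosomal protein genes made up most of the rest. At the very top of the list, *CT010467.1* (27521 ± 1928 TPM) is annotated as a ribosomal RNA and shares part of its exon with another gene on the same strand. The short *Gm23935*, annotated as a microRNA, owes its 6563 ± 1407 TPM to a mean of only 111 ± 24.9 CPM over a very short exon. With the longest transcript in place of the summed exons, 17 of the top 20 genes were the same. Transcripts of the mitochondrial genome supplied 1.104, 1.39, 1.74 and 1.69% of counts, and the keratins 1.41, 1.58, 1.53 and 1.504%.

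**Figure D1:**
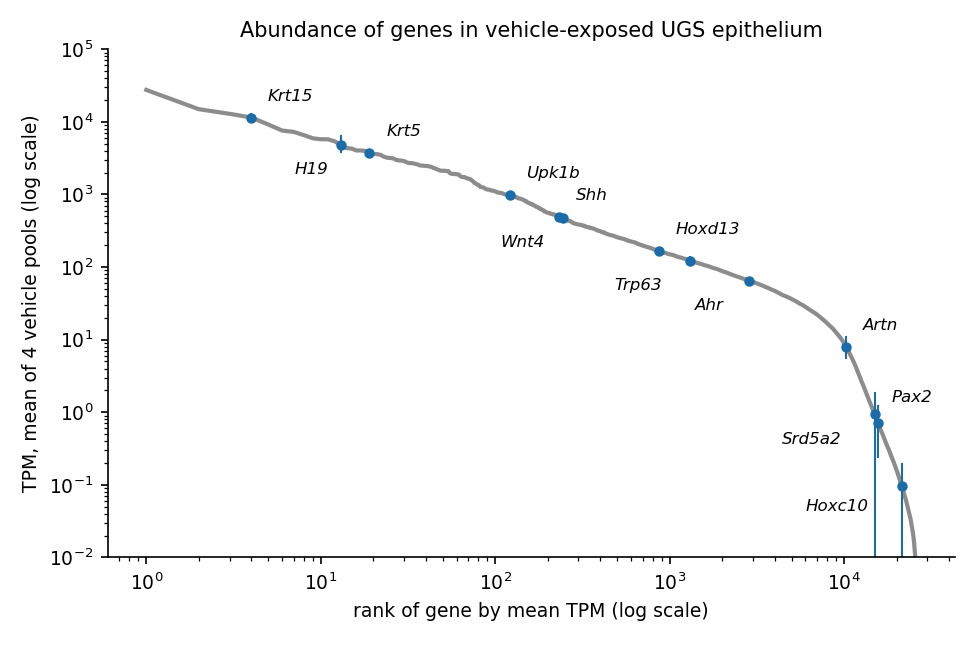
Each gene's mean TPM over 4 vehicle pools (vertical axis, log scale) against its rank (horizontal axis, log scale); blue points mark named genes and blue bars their range over the pools. *Krt15* sits near the top at 11462 TPM and *Shh*, *Wnt4* and *Trp63* between 493 and 123 TPM, while *Pax2* lies at 0.942 and *Hoxc10* at 0.0967 TPM.

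Promoter composition varied with the level of the gene. Stretches of 250 bases just before the annotated start of 4 genes are shown because they span the range, from a ligand and a HOX gene of this epithelium with CpG-rich promoters to a basal keratin and a cornified envelope gene with few or no CpG. They were taken from RefSeq on GRCm38.p6 and are written 5′ to 3′ on the gene's strand, with each CG in capitals and, in *Sprr1a*, the letters TATAAA in capitals as well.
Wnt4, chr4:137277385-137277634, + strand: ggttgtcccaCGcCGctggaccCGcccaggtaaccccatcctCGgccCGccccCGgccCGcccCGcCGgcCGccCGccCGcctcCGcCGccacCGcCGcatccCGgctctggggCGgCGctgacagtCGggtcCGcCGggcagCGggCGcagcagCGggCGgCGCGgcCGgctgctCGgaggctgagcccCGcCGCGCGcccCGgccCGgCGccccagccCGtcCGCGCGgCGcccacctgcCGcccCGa
Hoxa13, chr6:52260881-52261130, - strand: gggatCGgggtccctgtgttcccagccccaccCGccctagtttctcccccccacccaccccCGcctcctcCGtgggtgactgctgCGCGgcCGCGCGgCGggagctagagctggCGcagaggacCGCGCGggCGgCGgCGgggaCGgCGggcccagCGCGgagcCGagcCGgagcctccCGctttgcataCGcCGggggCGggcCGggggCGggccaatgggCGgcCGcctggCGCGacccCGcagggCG
Krt5, chr15:101712906-101713155, - strand: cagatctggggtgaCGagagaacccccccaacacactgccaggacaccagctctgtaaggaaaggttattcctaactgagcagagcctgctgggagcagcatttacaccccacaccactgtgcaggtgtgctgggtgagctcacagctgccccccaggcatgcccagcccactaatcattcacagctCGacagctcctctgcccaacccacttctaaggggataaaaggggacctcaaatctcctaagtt
Sprr1a, chr3:92485882-92486131, - strand: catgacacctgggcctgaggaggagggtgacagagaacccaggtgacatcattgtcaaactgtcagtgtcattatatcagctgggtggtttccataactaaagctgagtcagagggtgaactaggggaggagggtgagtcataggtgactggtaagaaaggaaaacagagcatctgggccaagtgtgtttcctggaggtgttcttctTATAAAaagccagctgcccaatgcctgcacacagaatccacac
The *Wnt4* stretch holds 44 CG, that of *Hoxa13* 35, that of *Krt5* 2 and that of *Sprr1a* 0, where TATAAA begins 43 bases before the start. Over the 20922 genes matched by symbol to a RefSeq promoter, the median number of CG in the same window was 2 in genes with no count, 5 under 1 CPM, 12 from 1 to 10 CPM, 16 from 10 to 100 CPM and 19 at 100 CPM or more. Median GC content was 44.8% in windows of genes with no count and 62.8% in those at 100 CPM or more. TATAAA was found on either strand of 12.3% of all these windows, 22.4% of those of genes with no count and 5.10% of those at 100 CPM or more. Among the 100 most abundant genes the share was 8%. A match describes the letters of the window, not a site in use. *Krt5* is among the 20 most abundant genes, yet its number of CG equals the median of genes with no count.

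The tissue carried the markers its label names. The adhesion genes *Epcam* (533, 524, 519 and 544 CPM) and *Cdh1*, which encodes E-cadherin (1376, 1559.9, 1392 and 1410.5 CPM), were high in every pool. The simple-epithelial keratins *Krt8* (1019, 821, 1112 and 947 CPM) and *Krt18* (473, 354, 428 and 417 CPM) were high as well. *Shh*, the ligand that UGS epithelium sends to its mesenchyme, was at 428, 361, 432 and 438 CPM, *Foxa1*, a transcription factor of endodermal epithelium, at 311, 318, 302 and 334 CPM and *Upk1b*, a tetraspanin of the urothelial plaque, at 568, 593, 646 and 609 CPM. All 30 genes of a list of epithelial identity were at 1 CPM or more, and their summed level ranged only from 10163 to 10874 CPM. The male label also matched, with the Y-linked genes *Ddx3y* (49.7, 64.0, 55.1 and 63.6 CPM), *Kdm5d* (60.0, 63.4, 56.5 and 68.6 CPM), *Eif2s3y* (31.8, 52.5, 36.5 and 55.2 CPM) and *Uty* (36.6, 34.8, 28.9 and 32.7 CPM) present in all pools. *Xist*, the RNA that coats the inactive X chromosome, was at 0.213, 0.147, 0.386 and 0.22 CPM, and the Y-linked *Usp9y* had no count.

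**Figure D2:**
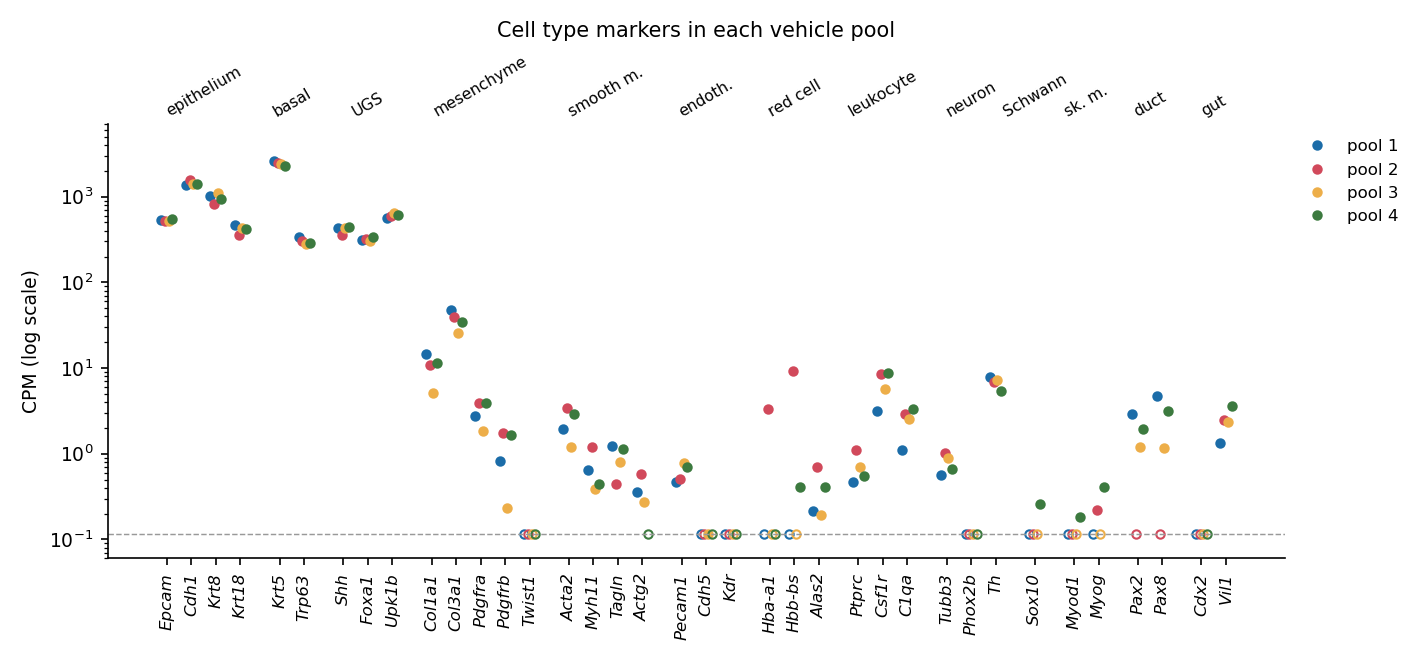
CPM (log scale) of cell type markers, grouped by the cell type named above them; each colored point is 1 of 4 vehicle pools, and open points on the dashed line lie under 3 counts and are drawn at the floor. The epithelial markers range from *Trp63* (284 to 340.1 CPM) to *Krt5* (2291 to 2577 CPM), while *Cdh5* and *Kdr* are at or near the floor, *Cdx2* has no count, and the red cell and duct markers differ between pools.

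Markers of other cell types were low but not absent, and some moved between pools. In bulk tissue fewer cells of a type and less RNA per cell cannot be told apart. Of the mesenchymal markers *Col3a1* was at 47.5, 38.9, 25.97 and 34.5 CPM, *Col1a1* at 14.7, 10.9, 5.05 and 11.3 CPM and *Pdgfra*, a receptor of fibroblast precursors, at 2.77, 3.89, 1.85 and 3.93 CPM, while *Twist1* was at 0.0355, 0.11, 0.0772 and 0.0734 CPM. The smooth muscle actin *Acta2* was at 1.92, 3.45, 1.196 and 2.90 CPM. It made up little of the smooth muscle list, whose sum was 143, 119, 124 and 116 CPM. A single other member held 65.5% of that sum. Endothelial markers were low, with *Pecam1* at 0.462, 0.513, 0.772 and 0.698 CPM and, at or near the floor of 3 counts, *Cdh5* at 0.0355, 0.0367, 0.116 and 0 CPM and *Kdr* at 0.0711, 0.11, 0 and 0 CPM. The macrophage genes *Csf1r* (3.13, 8.43, 5.63 and 8.78 CPM), *C1qa* (1.101, 2.90, 2.55 and 3.34 CPM) and *C1qb* (2.59, 4.87, 3.28 and 4.44 CPM) and the pan-leukocyte *Ptprc* (0.462, 1.0995, 0.695 and 0.551 CPM) were low in all pools. Defining genes of neurons and glia were low as well, with the neuronal tubulin *Tubb3* at 0.568, 1.03, 0.887 and 0.661 CPM and the glial *Sox10* at 0, 0.0733, 0 and 0.257 CPM. *Mbp*, a myelin gene whose locus also produces transcripts outside glia, held 97.8% of the Schwann list's sum at 138, 137, 147 and 137 CPM. The hindgut factor *Cdx2* had no count and the brush border gene *Vil1* was at 1.35, 2.46, 2.35 and 3.60 CPM. *Calca*, which encodes the peptide CGRP of sensory nerves and neuroendocrine cells, was at 6.08, 11.5, 7.37 and 21.1 CPM, highest in pool 4, and *Th*, the tyrosine hydroxylase of noradrenergic nerves, at 7.89, 6.85, 7.18 and 5.43 CPM.

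Keratins covered both basal and simple epithelial forms. Per length, *Krt15* was first (11462 ± 1042 TPM), *Krt5* (3754 ± 227 TPM) and *Krt4* (3515 ± 589.5 TPM) came next with overlapping ranges, and *Krt19* (2707 ± 140.2 TPM) overlapped with *Krt4* in turn. *Krt8* (1684 ± 199.8 TPM) and its partner *Krt18* (984 ± 115 TPM) were lower and separate from their neighbors. *Krt4* and its partner *Krt13* belong to the non-cornified stratified layers, yet *Krt13* stood at only 41.6 ± 24.5 TPM. The keratin *Krt6a* of fast-growing epithelium was at 119 ± 16.80 TPM. Of 54 keratins in the annotation 24 reached 1 CPM and 9 had no count. Among the basal genes, *Trp63*, the transcription factor required for stratified epithelium, was at 123 ± 11.8 TPM, *Sfn*, a 14-3-3 protein of keratinocytes, at 1059 ± 101 TPM, and the desmosomal *Perp*, a target of p63, at 867 ± 39.98 TPM.

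Urothelial genes were abundant although the bladder had been cut off. All 19 genes of the urothelial list were at 1 CPM or more. The uroplakins *Upk1a* (1149.9 ± 106 TPM), *Upk1b* (979 ± 42.7 TPM) and *Upk2* (569.8 ± 104 TPM), which form the plaques of superficial urothelial cells, were all far above the median level of expressed genes. *Psca*, a surface protein named for prostate stem cells, reached 1918 ± 663 TPM with the CPM values 303, 487, 445 and 716, lowest in pool 1 and highest in pool 4. Squamous genes were less uniform. The cornified envelope gene *Sprr1a* (1242 ± 179.8 TPM) was abundant, whereas *Lor*, which encodes loricrin, stood at 121 ± 8.68 TPM. Of 29 squamous genes 18 reached 1 CPM, and *Krt4* alone held 75.2% of their summed CPM.

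Among transcription factors of epithelium, the ETS factor *Elf3* (465 ± 60.5 TPM), the HLH factor *Id1* (407 ± 67.2 TPM), which blocks differentiation factors and responds to BMP, *Grhl3* (342 ± 35.8 TPM), a factor of epidermal barrier genes, and *Foxa1* (322 ± 14.2 TPM) were among the highest. *Gata3*, needed for luminal and urothelial lineages, was at 256 ± 10.4 TPM and *Hes1*, a Notch target, at 220.1 ± 15.4 TPM. Immediate neighbors among these factors overlapped over the pools, while genes further apart, such as *Elf3* (411 to 529 TPM) and *Foxa1* (304 to 337 TPM), were separate. *Tbx3*, a T-box repressor, was at 243, 197, 235 and 247 CPM and *Sox9*, which marks prostatic bud tips, at 80.2, 113, 94.7 and 137 CPM, with pool 4 highest for *Sox9*. The summed level of all 17 prostate bud factors varied only from 1323 to 1498 CPM.

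The HOX genes, which record position along the body axis, were led by their most posterior members. All 11 *Hoxa* genes, 9 of 10 *Hoxb* genes and all 9 *Hoxd* genes were at 1 CPM or more, against 0 of 9 *Hoxc* genes. *Hoxd13* (166 ± 10.9 TPM; 131, 112, 121 and 121 CPM) was the highest and *Hoxa13* (138 ± 6.06 TPM; 104, 102, 96.5 and 100.4 CPM) the next, each separate from its neighbors. Both are needed for the prostate and external genitalia. *Hoxb13*, required for the ventral prostate, was at 83.4 ± 10.1 TPM (55.1, 44.2, 59.9 and 58.5 CPM) and could not be ranked against *Hoxa10* (74.0 ± 2.01 TPM). *Hoxd12* (49.5 ± 16.5 TPM), *Hoxa11* (39.6 ± 2.23 TPM) and *Hoxa9* (30.7 ± 0.957 TPM) came further down. The paralog group 13 genes together made up 42.2, 45.6, 44.2 and 43.6% of all HOX TPM in pools 1 to 4. The *Hoxc* cluster was at or near 0 counts. *Hoxc5* was its highest member at 0.355, 0.367, 0.0772 and 0.184 CPM, *Hoxc10* was at 0.0711, 0.0367, 0 and 0.11 CPM, and *Hoxc11*, *Hoxc12* and *Hoxc13* had no count. The anterior *Hoxb1* was at 0.249, 0.513, 0.579 and 0.257 CPM. Among the named HOX genes *Hoxa2*, *Hoxd3*, *Hoxd4* and *Hoxd11* share at least 10% of their exon length with another gene on the same strand, and their values are less certain.

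**Figure D3:**
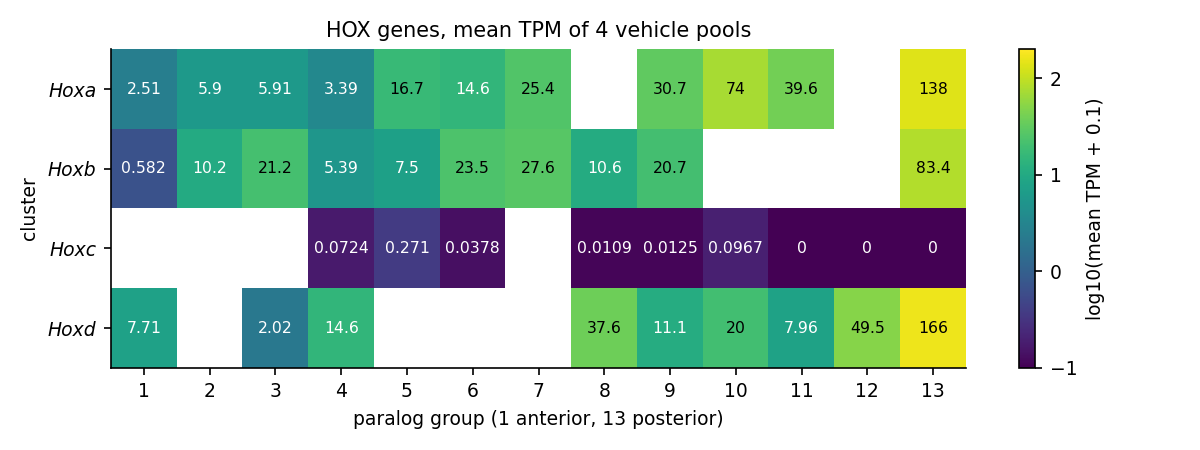
Mean TPM over 4 vehicle pools of every HOX gene, by cluster (rows) and paralog group (columns, from 1, anterior, to 13, posterior), colored on a log10 scale; empty cells have no gene. The highest values are those of *Hoxd13* (166) and *Hoxa13* (138), and the *Hoxc* row stays under 1 TPM.

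Hedgehog signaling was led by its ligand. *Shh* was at 493 ± 39.7 TPM and *Ihh*, the Indian hedgehog ligand, at 5.29, 2.31, 6.48 and 5.03 CPM, with no overlap of their TPM ranges (434 to 517 against 2.59 to 7.11 TPM). The transducer *Smo* (198, 204, 198 and 197 CPM), the repressor *Sufu* (94.8, 97.9, 91.9 and 91.9 CPM) and the co-receptor *Cdon* (66.7, 71.2, 72.5 and 72.9 CPM) were present at moderate and even levels. WNT ligands had a clear order. *Wnt4* (472 ± 40.6 TPM) was first, followed by *Wnt7b* (97.6 ± 9.42 TPM), *Wnt6* (74.9 ± 5.87 TPM) and *Wnt10a* (34.7 ± 3.60 TPM), and each of these was separate from the next. *Wnt4*, a ligand required in kidney and female duct development, held 67.5% of the summed CPM of 19 ligands, of which 12 reached 1 CPM. Receptors and feedback genes were widely expressed, with *Lgr4*, an R-spondin receptor, at 167, 185, 155 and 163 CPM, *Fzd7* at 102, 98.3, 106 and 99.2 CPM, *Rnf43*, a ligase that removes frizzled receptors, at 137, 113, 135 and 132 CPM and the secreted antagonist *Sfrp2* at 77.1, 57.8, 71.7 and 61.7 CPM. *Axin2*, the standard readout of β-catenin, was at 61.1, 45.7, 62.0 and 69.6 CPM.

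In the FGF pathway a receptor gene took the largest share of counts. *Fgfr2*, whose epithelial form binds mesenchymal FGF10 and FGF7, was at 717, 659, 647 and 687 CPM and held 43.0% of the summed CPM of the list, and *Fgfr3* was at 296, 328, 333 and 352 CPM. The feedback regulator *Spred2* was at 94.0, 92.0, 95.1 and 97.9 CPM, and did not pass the test for a difference between pools described further on. Other pathways were present with their receiving ends. *Bmpr1a*, a BMP receptor, was at 190, 202, 179.6 and 187 CPM, *Notch3* at 291, 313, 310.1 and 332 CPM, *Notch1* at 277, 277, 270.3 and 314 CPM, and the Notch ligand *Jag2* at 170.2, 166, 203 and 205 CPM. The ectodysplasin pathway, which places buds of hair, teeth and glands, had its adaptor *Edaradd* at 85.8, 81.6, 85.2 and 77.0 CPM, its receptor *Edar* at 7.85, 8.72, 6.64 and 9.91 CPM and its ligand *Eda* at 24.7, 23.9, 26.3 and 24.5 CPM, and the related receptor *Tnfrsf19* at 186, 197, 179 and 196 CPM. Per length, the highest of the retinoid genes included the retinoic acid receptor *Rarg* (263, 295, 307 and 307 CPM) and the retinoid X receptor *Rxra* (393, 405, 419 and 411 CPM). They also included the retinaldehyde reductase *Dhrs3* (320.3, 351, 319 and 347 CPM) and the retinoic acid-binding protein gene *Crabp2* (47.0, 67.1, 55.3 and 60.2 CPM). Among EGF family genes *Erbb2* (387, 446, 442 and 457 CPM) and *Erbb3* (293, 324, 315 and 315 CPM) exceeded *Egfr* per length (281 ± 19.01 and 175 ± 7.31 against 18.2 ± 1.11 TPM), and the ligand *Tgfa* was at 45.3, 50.8, 48.3 and 57.4 CPM.

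The glucocorticoid receptor stood well above several other steroid hormone receptors. *Nr3c1*, the glucocorticoid receptor gene, was at 47.2 ± 3.71 TPM (113, 112, 107 and 96.6 CPM). The estrogen receptor *Esr1* (1.56 ± 0.139 TPM; 6.61, 5.57, 6.95 and 6.10 CPM), the progesterone receptor *Pgr* (1.80 ± 0.271 TPM; 4.55, 5.24, 4.75 and 3.67 CPM) and the mineralocorticoid receptor *Nr3c2* (1.75 ± 0.309 TPM; 2.74, 2.90, 3.97 and 3.82 CPM) were far lower per length, and *Esr2* was at 0.426, 0.733, 0.386 and 0.551 CPM. Of the enzymes that convert testosterone to dihydrotestosterone, *Srd5a1* was high (171, 139, 177 and 149 CPM), though part of its exon is shared with another gene on the same strand, and *Srd5a2*, the form of male genital mesenchyme, was barely counted (0.391, 0.257, 0.116 and 0.588 CPM). The related *Srd5a3*, which acts in glycosylation, was at 27.6, 28.4, 27.6 and 23.8 CPM.

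Neurotrophic and guidance genes act on the nerves that grow toward an epithelium, and the study asked about the nerves of the prostate. The heparin-binding growth factor *Mdk* (983 ± 75.7 TPM; 395, 377, 418 and 347 CPM) was the highest of 21 neurotrophic genes, and its relative *Ptn* was at 87.0, 101, 94.8 and 86.9 CPM. The receptor genes *Gfra1* (191, 163, 194 and 173 CPM) and *Ret* (44.6, 55.2, 53.7 and 45.3 CPM), which together bind GDNF, were present, whereas *Gdnf* itself was at 0.284, 0.257, 0.116 and 0.441 CPM. *Artn*, the artemin ligand of sensory and sympathetic axons, was at 3.94, 5.53, 5.44 and 7.67 CPM, highest in pool 4, and its receptor *Gfra3* at 0.213, 0.183, 0.193 and 0.11 CPM. The neurotrophin *Ntf5* was at 19.7, 17.2, 20.3 and 17.7 CPM and the neurotrophin receptor *Ngfr* at 0.284, 0.586, 0.154 and 1.95 CPM, highest in pool 4. Of 27 guidance genes 24 reached 1 CPM. *Sema3f* (346, 338, 369 and 404 CPM) and *Sema3c* (394, 399, 387 and 390.5 CPM), which repel or attract axons, were strongly expressed, and the levels of *Sema3c* were nearly the same in the 4 pools. *Plxnb2*, a semaphorin receptor, was at 546, 585, 599 and 623 CPM. *Sema3a* was lower per length, at 3.86 ± 0.468 TPM (13.998, 18.1, 16.4 and 14.7 CPM) against 237 ± 17.1 TPM for *Sema3f* and 186 ± 4.42 TPM for *Sema3c*, and the receptors *Nrp1* (3.23, 1.91, 2.47 and 2.28 CPM) and *Nrp2* (0.853, 0.696, 0.463 and 0.22 CPM) were low.

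The machinery of the aryl hydrocarbon receptor was present, and its best known target was hardly counted. *Ahr*, the receptor that TCDD binds, was at 124, 111, 118 and 120 CPM (65.0 ± 3.01 TPM) and its partner *Arnt* at 91.9, 88.3, 83.6 and 80.4 CPM. *Cyp1a1*, the monooxygenase that AHR switches on, was at 0.0355, 0.0733, 0 and 0.0367 CPM and *Cyp1a2* had no count. *Cyp1b1* was at 7.60, 12.3, 9.11 and 9.73 CPM, *Tiparp* at 20.9, 24.6, 21.3 and 21.7 CPM and the repressor *Ahrr* at 0.497, 0.11, 0.347 and 0.624 CPM. Of genes under the oxidative stress factor, *Nfe2l2* itself was at 99.9, 88.5, 103 and 94.2 CPM and its target *Nqo1* at 5.01, 3.45, 5.98 and 5.14 CPM. *Ahrr* was lowest in pool 2, with 3 counts.

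Cell cycle genes were expressed throughout. All 26 cell cycle genes were at 1 CPM or more, with *Pcna* at 257 ± 30.5 TPM and the replication helicase genes *Mcm6* (155 ± 12.4 TPM), *Mcm4* (153 ± 19.3 TPM) and *Mcm3* (138 ± 16.72 TPM). Imprinted growth genes were abundant, since besides *H19* the maternal *Cdkn1c*, a cell cycle inhibitor, was at 443 ± 34.7 TPM, *Gnas* at 326 ± 19.7 TPM and *Grb10*, an inhibitor of insulin signaling, at 207 ± 22.6 TPM. Immediate early genes, which can respond to handling of tissue, were at moderate levels. *Junb* was at 23.9, 30.9, 45.8 and 41.1 CPM, *Jun* at 58.5, 55.1, 58.6 and 58.8 CPM and *Egr1* at 18.3, 27.0, 33.1 and 11.3 CPM, so *Egr1* was highest in pool 3 and lowest in pool 4 while *Jun* hardly moved. The summed level of the stress list was 441, 537, 531 and 481 CPM.

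How far did the 4 pools differ? The common biological coefficient of variation between pools was 0.104, and the median SD over pools was 8.11% of the mean for genes at 1 CPM or more, falling from 18.5% for genes of 1 to 10 CPM to 5.25% for those at 100 CPM or more. The counts of the lanes were tested with edgeR's quasi-likelihood F-test for a difference between pools, with p-values adjusted by Benjamini-Hochberg over 14702 tested genes. A gene is said to have differed where the adjusted p was at most 0.05, and to have differed by at least 1.5-fold where the highest pool was also at least 1.5 times the lowest. Since lanes are technical repeats, this asks whether these pools differ by more than counting error. It compares these 4 pools and no populations. By the first rule 9441 genes differed (64.2% of those tested), and by the second 2222 genes (15.1%). A DESeq2 likelihood ratio test gave 4829 and 1134 genes. Leaving out pool 1 or pool 4 lowered the second count to 1414 or 1389. The median ratio of the highest to the lowest pool was 1.22 over all tested genes. Among the 2222 genes, pool 4 was highest in 955 (6.5% of tested genes), pool 1 in 608 (4.14%), pool 2 in 368 (2.5%) and pool 3 in 291 (1.98%). Pool 1 was lowest in 744 and pool 2 in 649.

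**Figure D4:**
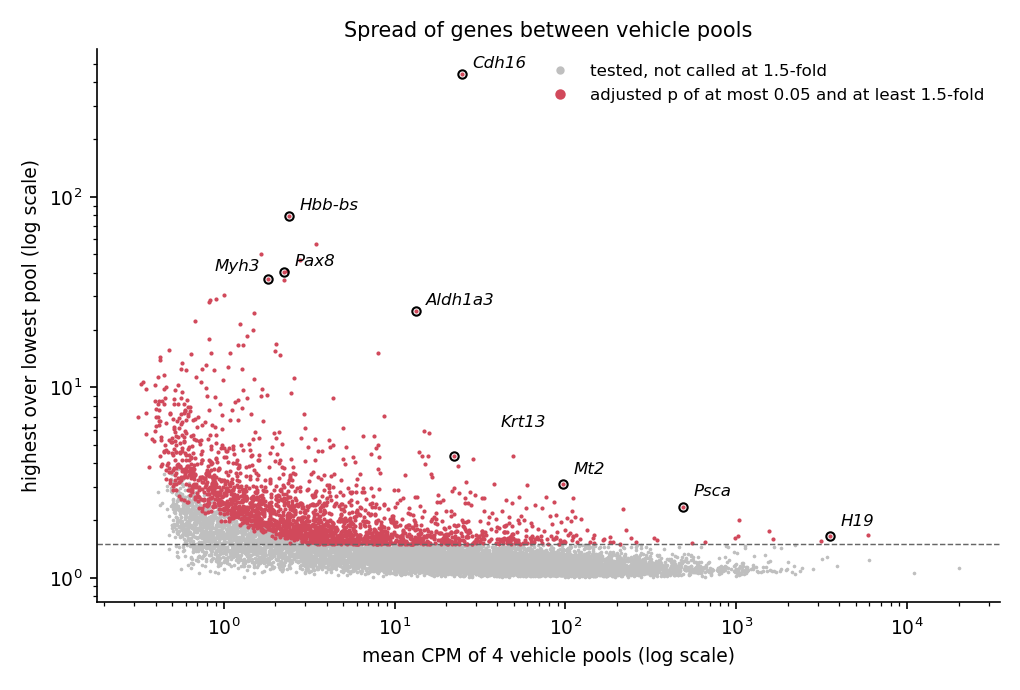
Ratio of the highest to the lowest of 4 vehicle pools (vertical axis, log scale, dashed line at 1.5) against mean CPM (horizontal axis, log scale) for each of 14702 tested genes; red points differed by at least 1.5-fold, and pools under 3 counts are set to 3 counts, so the highest ratios are drawn as lower bounds. Abundant genes lie close to 1, with *H19* at 1.65, and the duct gene *Cdh16*, *Hbb-bs* and *Myh3* lie at the top.

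Genes of epithelial identity and of the basal layer differed between pools mostly by small amounts. The median ratio of highest to lowest pool was 1.15 for epithelial identity, 1.24 for basal genes and 1.25 for prostate bud factors. Over all tested genes it was 1.22, so only the first of these lists lay under it. By at least 1.5-fold, 2 of 30 tested epithelial identity genes, 1 of 25 basal genes and 3 of 17 prostate bud factors differed, beside 15.1% of all tested genes. By the adjusted p alone it was 27 of 30, 24 of 25 and 16 of 17, beside 64.2%. Leaving out pools 1, 2, 3 and 4 in turn gave 0, 2, 2 and 0 genes of epithelial identity. The same exercise gave 1, 2, 1 and 0 basal genes and 2, 2, 3 and 2 prostate bud factors, and such counts follow in parentheses for the other lists. There were 5 of 15 for hedgehog (4, 3, 3 and 1), 4 of 13 for WNT ligands (3, 4, 3 and 3) and 2 of 16 for Notch (1, 2, 2 and 2). Urothelial genes gave 6 of 19 (5, 3, 4 and 5) and squamous genes 8 of 20 (5, 6, 8 and 7), where *Krt13* (9.02, 25.9, 15.4 and 39.3 CPM) was lowest in pool 1 and highest in pool 4, with a ratio of 4.36 that became 2.54 without pool 1 and 2.87 without pool 4. Among the other lists the count was 6 of 22 for BMP and TGF-β (3, 5, 5 and 4), 3 of 14 for retinoic acid (2, 3, 3 and 2), 3 of 12 for the EGF family (2, 2, 3 and 4) and 1 of 5 for ectodysplasin (0, 1, 0 and 1). Neurotrophic genes gave 8 of 16 (3, 8, 6 and 2), guidance genes 7 of 25 (2, 4, 7 and 2), AHR genes 2 of 9 (1, 1, 2 and 2), imprinted genes 7 of 15 (3, 5, 7 and 3) and stress genes 8 of 15 (4, 6, 8 and 5). Epithelial transcription factors gave 15 of 52 (9, 10, 11 and 12), keratins 8 of 26 (6, 8, 8 and 5) and sex genes 2 of 5 (1, 1, 2 and 1). Over all tested genes, leaving out pools 1, 2, 3 and 4 in turn gave 1414 of 14491, 1675 of 14557, 1804 of 14608 and 1389 of 14434. Counts thus fell with fewer pools over all genes too, so a lower number in parentheses is not by itself particular to a list. Of the 16 neurotrophic genes, 12 were still tested without pool 4. Of the steroid receptor and reductase genes, 5 of 7 tested differed, and none of the 7 reached 1.5-fold by edgeR's test.

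Genes of the Wolffian and Müllerian ducts were nearly missing from pool 2. *Cdh16*, a cadherin of kidney and duct epithelium at chr8:104601911-104624396 (GRCm38, protein-coding), was at 51.4, 0.0367, 21.3 and 26.3 CPM, with 1446 counts in pool 1 and 1 count in pool 2. The ratio of pool 1 to pool 2 was 1402, with a 95% counting interval of 251 to 55400, and the highest of the other 3 pools was 2.39 times their lowest. Without pool 1 the ratio was still at least 225 against a floor of 3 counts. *Pax8* (4.73, 0, 1.16 and 3.16 CPM) and *Pax2* (2.88, 0, 1.196 and 1.95 CPM), paired-box factors that make the duct, had no count in pool 2, which puts pool 1 at least 43.0-fold and at least 26.2-fold higher against a floor of 3 counts per pool, and their ratios without pool 2 were 4.04 and 2.38. *Emx2*, a homeobox gene of the urogenital ducts (6.64, 0.11, 2.93 and 4.22 CPM), and *Wnt9b*, the ligand that ducts send to nearby mesenchyme (5.47, 0, 2.70 and 3.05 CPM), followed the same order. The ratio of *Emx2*, from 187 and 3 counts, was 60.4 with a 95% counting interval of 20.4 to 296, *Wnt9b* was at least 49.8-fold higher in pool 1 than in pool 2, and without pool 2 their ratios were 2.24 and 2.004. Without pool 1 they were 36.2 and at least 26.1. All 6 tested genes of the duct list differed and had their lowest level in pool 2, beside 14.7% of all tested genes that differed with pool 2 lowest. By at least 1.5-fold it was 5 of 6, beside 4.41%, and 4 of the list still differed by that much over pools 1, 3 and 4. *Gata3*, which the list also holds and which this epithelium expresses throughout, made up 89.2% of its summed level and differed by less than 1.5-fold (309, 279.8, 309 and 305 CPM, and no difference without pool 2, adjusted p = 0.55).

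The same order of pools, 1 then 4, 3 and 2, held for several genes outside the list. Of these, *Kif12*, *Dcdc2a* and *Pde1a* were named after their values were seen. The naming rule also takes the largest ratios between these same pools. An order shared by genes chosen in these ways is therefore not independent support. *Aldh1a3*, a retinaldehyde dehydrogenase, was at 25.9, 1.03, 11.5 and 14.9 CPM (ratio 25.1, 14.5 without pool 1 and 2.24 without pool 2), and *Bicc1*, an RNA-binding protein of kidney tubules, at 24.5, 6.19, 13.504 and 15.8 CPM (ratio 3.94, 2.55 and 1.80). *Kif12* (4.37, 0.293, 1.62 and 2.28 CPM), *Dcdc2a* (13.4, 0.88, 6.98 and 10.7 CPM) and *Pde1a* (4.76, 0.11, 1.85 and 2.72 CPM) were also lowest in pool 2. Over the other pools their ratios were 2.67, 1.89 and 2.54. In the HOX B and D clusters some genes shared this order. *Hoxb9* was at 27.0, 6.12, 13.7 and 16.2 CPM (adjusted p = 1.89e-44 by edgeR's test, ratio 4.38, 2.63 without pool 1 and 1.95 without pool 2) and *Hoxb8* at 13.9, 3.92, 7.49 and 7.56 CPM (ratio 3.53, 1.92 and 1.84). *Hoxd12* (51.7, 23.6, 31.4 and 41.4 CPM) followed with a ratio of 2.18. In all, 10 of 29 tested HOX genes differed by at least 1.5-fold (7, 7, 10 and 7 without each pool in turn), with pool 1 highest in 9 (beside 4.14% of all tested genes) and pool 2 lowest in 7 (beside 4.41%). The summed *Hoxa* level did not show this order, at 357, 361, 352 and 357 TPM. The summed *Hoxb* level did, at 245, 163, 214 and 221 TPM, and so did the summed *Hoxd* level, at 371, 275, 303 and 316 TPM. The exact order 1, 4, 3, 2 was shared by 174 genes, or 7.83% of those that differed by at least 1.5-fold. Whether the amount of duct tissue in a pool has a part in these values was not tested.

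**Figure D5:**
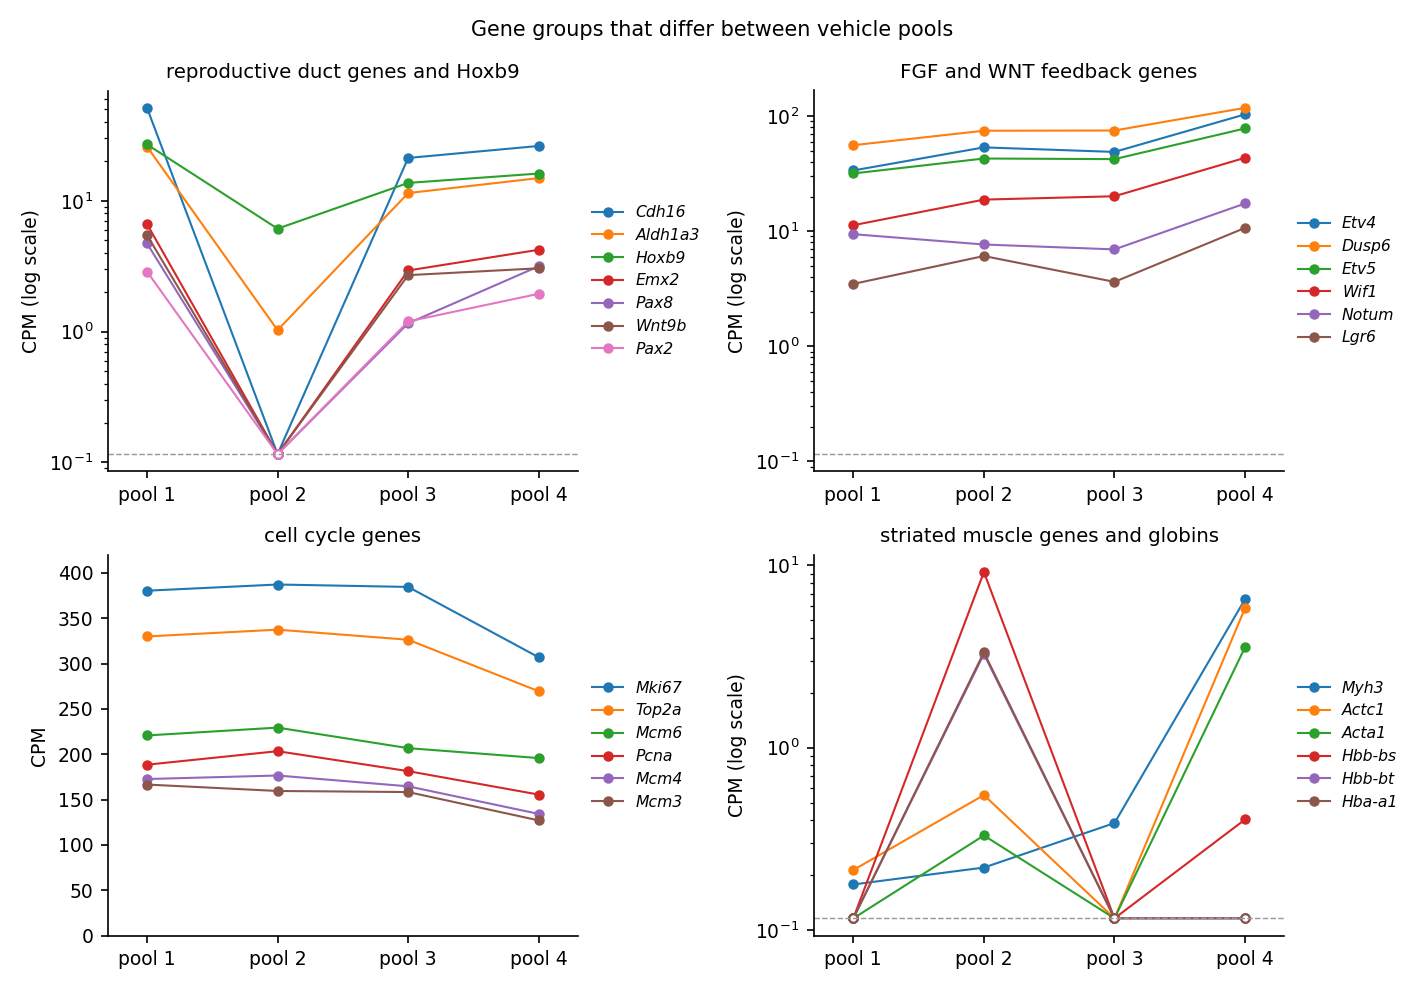
CPM in each of 4 vehicle pools (log scale, except the cell cycle panel, which starts at 0) of 4 groups of genes; lines join the pools of 1 gene only to guide the eye, and open points lie under 3 counts and are drawn at the floor (dashed). Duct genes drop in pool 2, the FGF and WNT feedback genes shown are highest in pool 4, and cell cycle genes are lowest in pool 4. Striated muscle genes are highest in pool 4 and globins in pool 2, with low counts of some of them in other pools.

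Pool 2 also carried the red cell messages. *Hbb-bs* was at 0, 9.20, 0 and 0.404 CPM, *Hbb-bt* at 0, 3.26, 0 and 0 CPM and *Hba-a1* at 0, 3.34, 0 and 0 CPM, so that the adult globins were counted in pool 2 and hardly elsewhere. The summed level of the erythroid list was 0.497, 18.7, 0.695 and 1.14 CPM and its highest-to-lowest ratio fell from 37.7 to 2.29 without pool 2. Against a floor of 3 counts in pool 1, *Hbb-bs* was at least 86.3-fold higher in pool 2.

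Some genes of FGF and WNT response were highest in pool 4. Those given here were mostly named after their values were seen. The ETS factors *Etv4* (33.7, 53.4, 48.8 and 103 CPM) and *Etv5* (31.7, 42.8, 42.2 and 78.1 CPM), which are switched on by FGF signaling, and the feedback genes *Dusp6* (55.8, 74.5, 74.9 and 118 CPM) and *Spry4* (2.03, 2.16, 1.81 and 3.89 CPM) were all highest in that pool. Without it their ratios were 1.59, 1.35, 1.35 and 1.19, the last of which no longer differed (adjusted p = 0.749). Among WNT feedback genes, *Wif1* (11.3, 18.8, 20.1 and 43.4 CPM), *Notum* (9.41, 7.66, 6.95 and 17.4 CPM), a lipase that inactivates WNT, and *Lgr6* (3.48, 6.08, 3.63 and 10.7 CPM), an R-spondin receptor, were again highest in pool 4, with ratios of 3.86, 2.48 and 3.07 that became 1.80, 1.35 and 1.75 without it (*Wif1* also fell to 2.302 without pool 1). Of the FGF list 10 of 20 tested genes differed by at least 1.5-fold (7, 8, 10 and 5 without each pool in turn) and of the WNT receptors and feedback genes 7 of 26 (6, 6, 7 and 5), beside 15.1% of all tested genes. Pool 4 was highest in 5 of each set, beside 6.5%. Other WNT genes were highest elsewhere, among them *Rnf43* and *Sfrp2* in pool 1 and *Lgr4* in pool 2.

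Other genes with pool 4 highest included *Ly6a*, which encodes the stem cell antigen Sca-1 (22.2, 45.2, 33.5 and 97.0 CPM), the chemokine receptor *Cxcr4* (6.79, 13.1, 8.64 and 29.4 CPM) and the matrix protease *Mmp7* (18.9, 24.6, 17.5 and 49.6 CPM). Their ratios were 4.37, 4.34 and 2.81, and 2.03, 1.93 and 1.40 without pool 4 (*Ly6a* 2.88 without pool 1). The imprinted *Mest* was at 13.6, 19.8, 14.1 and 39.0 CPM (ratio 2.86, 1.45 without pool 4) and *Col9a3*, a cartilage-type collagen, at 5.65, 12.6, 13.1 and 32.6 CPM (ratio 5.77, 2.57 without pool 1 and 2.33 without pool 4). *Lrrc26* (11.4, 29.7, 26.3 and 47.9 CPM), *Gsdmc2* (6.29, 19.9, 16.82 and 22.1 CPM), *Padi1* (7.21, 24.2, 14.2 and 20.5 CPM) and *Cwh43* (4.73, 21.4, 11.7 and 18.1 CPM) were instead lowest in pool 1, and their ratios of 4.21, 3.53, 3.37 and 4.55 became 1.81, 1.31, 1.69 and 1.82 without it (*Lrrc26* 2.60 without pool 4). The order 4, 2, 3, 1 was the most frequent of all, in 313 genes or 14.1% of those that differed by at least 1.5-fold.

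Cell cycle genes went the other way. *Mki67*, a marker of dividing cells, was at 380.4, 387, 385 and 307 CPM and *Top2a*, the topoisomerase of mitotic chromosomes, at 329.9, 337, 326 and 269 CPM, with pools 1 to 3 close together and pool 4 under them. All 26 tested cell cycle genes differed and pool 4 was the lowest in each, beside 19.4% of all tested genes that differed with pool 4 lowest. The differences were small, with 0 of them at 1.5-fold or more by edgeR's test and a median ratio of 1.29. The summed level was 3492, 3590.3, 3482 and 2871 CPM. Without pool 4, 14 of the 26 still differed, and the ratio of the sums fell from 1.25 to 1.03.

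Striated muscle genes were at trace levels and stood highest in pool 4. *Myh3*, the embryonic myosin heavy chain, was at 0.178, 0.22, 0.386 and 6.54 CPM, the cardiac actin *Actc1* of fetal muscle at 0.213, 0.55, 0 and 5.84 CPM and the skeletal actin *Acta1* at 0.0711, 0.33, 0.0772 and 3.56 CPM. For *Acta1* the ratio of pool 4 to pool 1 was 50.1, from 97 and 2 counts, with a 95% counting interval of 13.51 to 419.8. The 6 tested genes of the skeletal muscle list all differed by at least 1.5-fold with pool 4 highest. Over all tested genes the share was 15.1%, and 6.5% with pool 4 highest. With pool 4 left out, only 1 of the 6 kept enough counts for a test, and 0 differed. Most of them entered the test only through their pool 4 counts, so their number cannot be judged against those shares. The ratio of the sums fell from 10.7 to 1.65 without pool 4. The defining factors were at or near 0, with *Myod1* at 0, 0.0367, 0 and 0.184 CPM and *Myog* at 0.0355, 0.22, 0 and 0.404 CPM. The summed levels of this list were 3.16, 3.70, 2.24 and 24.1 CPM, and their part in the other differences of pool 4 was not tested.

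Some abundant genes were highest in pool 1, of which *Igfbp2*, *Mt1* and *Mt2* were chosen after their values were seen. *H19* was at 4589, 3273, 3476 and 2778 CPM (ratio 1.65) and *Igfbp2*, a binding protein of insulin-like growth factors, at 125, 46.5, 68.6 and 69.1 CPM, both highest in pool 1. The metallothioneins *Mt1* (169, 79.7, 114 and 75.4 CPM) and *Mt2* (169, 66.5, 98.8 and 54.2 CPM) had the same highest pool, and without pool 1 the ratios of *Igfbp2* and *Mt2* fell from 2.67 and 3.11 to 1.48 and 1.84. On the list of imprinted growth genes, 7 of 15 tested genes differed by at least 1.5-fold, 2 with pool 1 highest (beside 4.14% of all tested genes) and 4 with pool 4 highest (beside 6.5%). The mitochondrial genome was lowest in pool 1, with *mt-Co1* at 4303, 5652, 7143 and 6499 CPM and *mt-Cytb* at 2407, 2916, 3719.7 and 3412 CPM. Of its 12 tested genes 9 differed by at least 1.5-fold, 8 of them with pool 1 lowest (beside 5.06% of all tested genes), and without pool 1 9 still differed but 0 by that much. Leukocyte genes were also low there. In all, 10 of 13 tested leukocyte genes differed by at least 1.5-fold (6, 9, 10 and 9 without each pool in turn), beside 15.1% of all tested genes, pool 1 was lowest in 6, beside 5.06%, and their summed level was 24.1, 44.8, 33.5 and 44.4 CPM.

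Pool 3 had the least mesenchymal message. *Col6a2*, a collagen of connective tissue, was at 2.20, 4.47, 0.617 and 4.48 CPM (ratio 7.21, 2.04 without pool 3) and *Pdgfrb*, a receptor of pericytes and stroma, at 0.817, 1.76, 0.232 and 1.65 CPM (ratio 7.56, 2.17). *Col1a1* had a ratio of 2.89, and 1.35 without pool 3. A total of 8 of 14 tested mesenchymal genes differed by at least 1.5-fold and all 8 were lowest in pool 3, beside 3.47% of all tested genes, while 6, 8, 3 and 8 differed when each pool was left out in turn. Their summed level was 291, 271, 229 and 261 CPM, of which *Dcn*, a proteoglycan gene of connective tissue, made up much (97.7, 93.8, 85.0 and 88.1 CPM) and *Col5a1* (57.2, 51.9, 57.9 and 56.1 CPM) a further share, and neither of these was spread by 1.5-fold. The smooth muscle sum was 143, 119, 124 and 116 CPM and the endothelial sum 9.02, 7.70, 9.57 and 9.14 CPM. By at least 1.5-fold, 3 of 5 tested smooth muscle genes differed (3, 1, 4 and 3 without each pool) and 1 of 3 endothelial genes (1, 0, 1 and 0), beside 15.1% of all tested genes. It was 2 of 5 for neuronal genes (2, 2, 2 and 2), 5 of 7 for neuroendocrine genes (3, 4, 4 and 1), 0 of 2 for Schwann cell genes (1, 0, 0 and 0) and 2 of 4 for hindgut genes (1, 2, 2 and 1). *Stmn2*, a neuronal gene, was highest in pool 1 at 35.7, 18.0, 26.1 and 21.0 CPM.

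Ribosomal protein genes showed how small a shift these counts resolve. As many as 81 of 82 tested genes differed, beside 64.2% of all tested genes, with pool 2 lowest in 63, beside 14.7%, and the median ratio of the highest to the lowest pool was only 1.102. Their summed level was 74536, 69752, 73966 and 73865 CPM, and 1 of 82 differed by at least 1.5-fold. Single genes with small ratios included some of high level. *Ppia*, a housekeeping gene, was at 1053, 1056, 1106 and 966 CPM with a ratio of 1.15, *Cdh1* had a ratio of 1.14 and *Epcam* one of 1.04.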

How the data were processed

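RNA-seq of UGS epithelium was taken from the deposited count table, in which 8 columns hold the 4 vehicle pools on 2 lanes. Per the labels and the methods of the study, the authors used FastQC 0.11.9 for read quality, HISAT2 2.1.0 for alignment to the mouse build GRCm38.p6 (with Bowtie2 2.4.1 named for the index) and SAMtools 1.10 for sorting, and made counts per gene with HTSeq 0.12.4 in reverse-stranded mode over Ensembl genes, so antisense pairs are kept apart. Read pairs that cannot be assigned to a single gene or that align to several places are not counted by that tool, which lowers genes with close copies. Lines that name no gene held 17.4 to 19.7% of a column and were left out. The authors' deposited tables of their own comparisons (log2 fold changes, p-values, −log10 of the FDR and F scores, made with edgeR 3.30.3 in R 4.0.2) concern exposed against vehicle tissue and were not used, and the 8 columns of exposed pools were not analysed here.

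Lanes were averaged and counts divided by the gene total of the pool for CPM. TPM used the union of exons of GENCODE M21, which is of the same genome build but another release than the authors used, and covered 55227 of 55487 genes. Genes were filtered with filterByExpr (minimum count 10, minimum total count 15), scaled by TMM and tested between pools with edgeR 4.0.16 (R 4.3.3, limma 3.58.1) on the lanes, as a quasi-likelihood F-test with 3 degrees of freedom. Labels call the pools biological replicates. Lanes are technical, so p-values measure only how pools exceed counting error. A dispersion between pools was estimated from summed lanes. Alternatives were other scalings, no filter, a lane covariate, a DESeq2 1.42.0 likelihood ratio test, a fold of at least 2, other definitions of an expressed gene and leaving out each pool.

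The pools and gene lists were chosen with earlier results of these data known. There were 35 lists written by hand, plus keratins, the mitochondrial genome and cytosolic ribosomal proteins, and each was described by counts and sums, with no test of the list. Members not matched by symbol were *Ahsp* and the old name *Troy* of *Tnfrsf19*. Genes were named by rule: the 20 highest TPM outside the mitochondrial genome, the 4 highest TPM of each list, the 15 largest ratios between pools among genes that differed by at least 1.5-fold with a mean of at least 10 CPM, all HOX, sex, steroid, AHR and neurotrophic genes, fixed cell type markers, and genes the study names for this tissue. A few genes that this rule covers are not reported here. A further 23 genes were named after their values were seen, namely *Sox9*, *Ihh*, *Wnt9b*, *Axin2*, *Notum*, *Lgr6*, *Etv4*, *Etv5*, *Spry4*, *Mki67*, *Top2a*, *Mest*, *Egr1*, *Kif12*, *Pde1a*, *Dcdc2a*, *Mmp7*, *Col6a2*, *Igfbp2*, *Mt1*, *Mt2*, *Mycn* and *Neat1*.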

Additional observations from a re-analysis of the deposited data

Results flagged for a closer look

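With 4 pools, a pool was listed when its gap to the nearest other pool as a share of the whole range over the pools exceeded Dixon's 95% critical value for 4 samples. Of 232 levels checked (summed lists and genes the text names), 20 were listed, or 8.62%, and chance lists about 1 in 20 groups. Lists and genes here share pools, so they are not independent. Some of the genes were also named for their spread between these same pools or after their values were seen. The rate of 1 in 20 does not hold for a set chosen that way, so the share listed cannot be judged against it.

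Pool 4 stood apart in 10 of the 20. The gap as a share of the range was 0.933 for the summed skeletal muscle list, 0.967 for *Myh3*, 0.926 for *Acta1* and 0.906 for *Actc1*, where pool 4 was high. Pool 4 was low for the summed cell cycle list (0.850), *Mki67* (0.915) and *Top2a* (0.836). It was high for the summed FGF list (0.839), *Spry4* (0.832) and *Notch1* (0.834).

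Pool 2 stood apart upward for the red cell messages, at 0.965 for the summed erythroid list, 0.956 for *Hbb-bs*, and 1 for *Hbb-bt* and *Hba-a1*, which had no count in any other pool. It stood apart downward for the summed cytosolic ribosomal proteins (0.860), *Gata3* (0.872), *Shh* (0.877) and *Jun* (0.936), which covered narrow ranges (361 to 438 CPM for *Shh* and 55.1 to 58.8 CPM for *Jun*). Pool 3 was high for the summed Schwann list (0.874) and for its main member *Mbp* (0.892), at 138, 137, 147 and 137 CPM.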

How the results depend on the processing

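Of 14702 tested genes, 9441 differed between pools and 2222 differed by at least 1.5-fold. A DESeq2 likelihood ratio test, on 15896 genes, lowered these to 4829 and 1134, and a fold of at least 2 left 1154. The cause of the lower DESeq2 counts was not tested. Leaving out each pool in turn gave 6932 to 7994 and 1389 to 1804 genes from fewer samples. Other scalings, no filter and a lane covariate kept both counts within 1.5 times. The dispersion was 0.104 and stayed between 0.0923 and 0.115 when each pool was left out. The number of genes at 1 CPM or more was 13518, and 12946 when asked of every pool. None of 235 levels moved by more than 1 SD under TMM scaling, whose largest shift was 0.462%. No paired analysis was possible because only vehicle pools were analysed, with no second group to share their numbers. Depth limits genes near 1 CPM, where a pool holds few counts. A count of 0 in a pool allows up to 3 counts, or 0.107 to 0.116 CPM, by counting error alone.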

Other observations

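Further genes moved between pools without belonging to a list, and their values are given as a description with no explanation. *Mycn*, a driver of growth in embryonic epithelium, was at 38.6, 23.4, 34.9 and 15.9 CPM, lowest in pool 4. The nuclear noncoding RNA *Neat1*, a scaffold of paraspeckles, was at 77.7, 73.8, 54.5 and 137 CPM, highest in pool 4. Pools also differed in how many genes they set apart. Of the 2222 genes that differed by at least 1.5-fold, pool 4 lay at least 1.5-fold above every other pool in 254 and pool 1 in 143, while pools 2 and 3 did so in 55 and 50. At least 1.5-fold under every other pool were 228 genes in pool 2, 204 in pool 1, 135 in pool 3 and 67 in pool 4.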
